A study of Rattus norvegicus with 13 samples.

Results

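The class I olfactory receptors of the rat were followed in the fat of 13 young females. Every gene whose symbol starts with Or51, Or52, Or55 or Or56 followed by a letter was taken from the annotation of the array, and where a symbol had several probes the brightest one was kept. This gave 121 genes of 14506 measured with a symbol of their own, 42 of them Or51, 68 Or52, 2 Or55 and 9 Or56. All 121 were found in RefSeq, all as protein-coding genes of chromosome 1. RefSeq lists 167 such symbols in all, 140 protein coding and 27 pseudogenes. The animals were female Sprague Dawley rats, an outbred strain, and all had been through tolerance tests with injected glucose and insulin before the fat was taken. Their fathers had eaten either standard chow (9% fat; control, 7 daughters) or high-fat pellets (43% fat; high-fat, 6 daughters), and were mated at the age of 15 weeks to chow-fed females. All daughters were weaned onto chow at 3 weeks, and fat was taken at 14 weeks, 1 array per animal. The labels name the animals by numbers from 619 to 631 and from 656 to 664, give neither the depot nor the father or litter of an animal, and so the p-values measure only the spread between these samples.

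Olfactory receptors are G protein-coupled receptors of the sensory neurons of the nose. Each neuron expresses one receptor gene, and a bound odorant signals through the G protein Golf, adenylyl cyclase 3 and a cyclic nucleotide-gated channel. Class I receptors resemble those of fish, sit in one cluster around the beta-globin genes, and many of them bind carboxylic acids. Some are also transcribed outside the nose, among them the relatives of human OR51E1 and OR51E2, which respond to fatty acids, and mouse Or55b4 (Olfr544), a receptor for azelaic acid that has been studied in fat.

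In this fat 1 member, Or51e1, gave a strong signal on every array, and the other 120 members gave lower signals, most of which moved together from array to array. The mean log2 signal of Or51e1 was 11.16 ± 0.32 (SD, n = 7 control daughters) and 11.25 ± 0.17 (SD, n = 6 high-fat daughters), a difference smaller than the spread between animals. Of the 121 members, 118 had a lower mean in high-fat daughters, with a median difference of -0.23 log2 units, but 0 passed limma's test across all genes. The median difference was -0.35 in daughters 619 to 631, with 118 lower, and 0.00 in daughters 656 to 664, with 60 lower. The mean over members followed the spread of values on each array. The median difference was -0.02 with that spread as a covariate, -0.18 with each array divided by it, -0.16 with quantile normalization applied again and -0.15 without the 3 arrays of smallest spread. The mean over members had an r of -0.98 with that spread, so the covariate fit cannot tell a group difference from array spread.

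The coding starts of the members that the results turn on are shown to identify the receptors and to show how far their sequences part. Each is the first 50 bases of the RefSeq coding sequence in assembly GRCr8, with the start codon in capitals.
Or51e1: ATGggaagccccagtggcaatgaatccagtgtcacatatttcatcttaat
Or52n2e: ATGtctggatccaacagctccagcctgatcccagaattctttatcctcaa
Or52m1: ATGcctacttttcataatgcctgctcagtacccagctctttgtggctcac
Or51q1: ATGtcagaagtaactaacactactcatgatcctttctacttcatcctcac
Or51b4: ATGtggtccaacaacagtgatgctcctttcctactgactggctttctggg
Or55b4: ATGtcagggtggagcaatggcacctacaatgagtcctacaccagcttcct
Or55b10: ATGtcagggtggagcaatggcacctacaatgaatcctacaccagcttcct

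These stretches lie at chr1:166560221-166560270 (plus strand) for Or51e1, chr1:168669337-168669386 (minus) for Or52n2e, chr1:166477144-166477193 (plus) for Or52m1 and chr1:167868020-167868069 (plus) for Or51q1. Those of Or51b4, Or55b4 and Or55b10 lie at chr1:167729991-167730040, chr1:166279273-166279322 and chr1:166296986-166297035, all on the minus strand. Set base for base against Or51e1, Or52n2e matched at 19 of 50 bases, Or51b4 at 17 and Or55b4 at 21. Or55b4 and Or55b10 differed by 1 base, G33A, counted from the A of the start codon of Or55b4. Among 107 members with a RefSeq window, the median pair shared 18 of 50 bases, while 20 pairs shared 45 or more, and 28 members were in such a pair. Probes for such near copies can bind each other's transcripts, so the values of these members are uncertain one by one. The windows of all 107 members begin with the start codon, against 9% of all 33469 windows in the table, so the bases before them are not taken here as promoters.

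Most members had low signals. The mean over 13 arrays ran from 3.98 (Or51b4) to 11.20 (Or51e1), with quartiles at 5.87, 6.25 and 6.71, while the median of all genes tested was 8.14. Signals lay between 5 and 7 for 105 members, below 5 for 5 and above 7 for 11. Medians were 6.32 for Or51, 6.19 for Or52, 6.67 for Or55 and 5.92 for Or56. Signals of different probes depend on their sequence, so these values describe the array and do not rank amounts of RNA. The brightest members after Or51e1 were Or52n2e (7.65), Or51r1 (7.51), Or51af1 (7.44), Or52m1 (7.34), Or51s1 (7.20), Or52b2 (7.13) and Or52ac1 (7.13). Detection over background was not assessed. Sry, a gene of the Y chromosome and so no gene of these females, gave 6.38 to 6.62 on the same arrays, within the range of most members. It was the only 1 of 10 listed Y-linked genes that was measured. Its SD over the arrays was 0.060, against a median of 0.288 for the members. With the spread of values on each array its r was 0.44, against a median of -0.91 for the members.

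**Figure D1:**
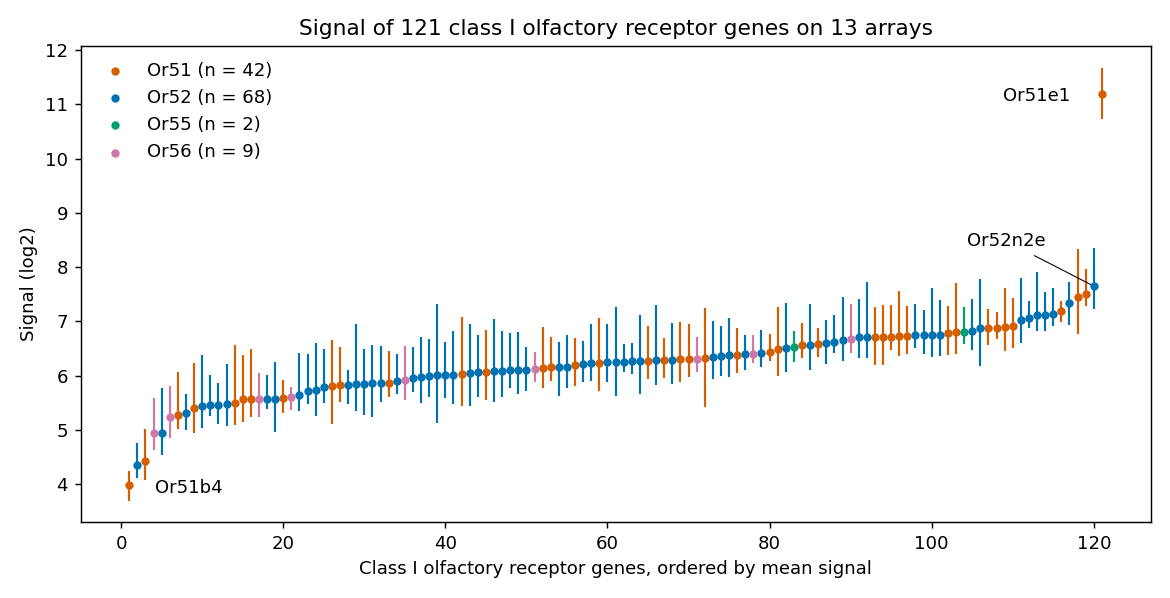
Mean log2 signal (point) and the lowest to highest of 13 arrays (line) of the 121 class I receptor genes, ordered by mean and coloured by subfamily. Or51e1 lies at 11.20, and the other 120 members lie between 3.98 and 7.65.

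Or51e1 was the only member above the median signal of all genes, and 749 of 14506 genes were brighter. Among all 1052 olfactory receptor genes measured it had the highest signal, the brightest of 931 class II receptors being Or10aa1 at 9.09. In control daughters Or51e1 read 11.34 (animal 622), 11.68 (627), 11.24 (631), 11.23 (656), 10.73 (658), 10.97 (662) and 10.91 (664), and in high-fat daughters 11.36 (619), 11.26 (620), 11.09 (624), 11.04 (629), 11.21 (660) and 11.51 (663). The lowest and the highest array were both controls, and the high-fat values lay within the control range. The difference, high-fat minus control, was 0.09 ± 0.13 (SE), with an adjusted p of 0.75 in limma, and 4 of 6 high-fat daughters lay above the control mean. In whole fat, fewer cells that express a gene and less RNA per cell cannot be told apart.

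**Figure D2:**
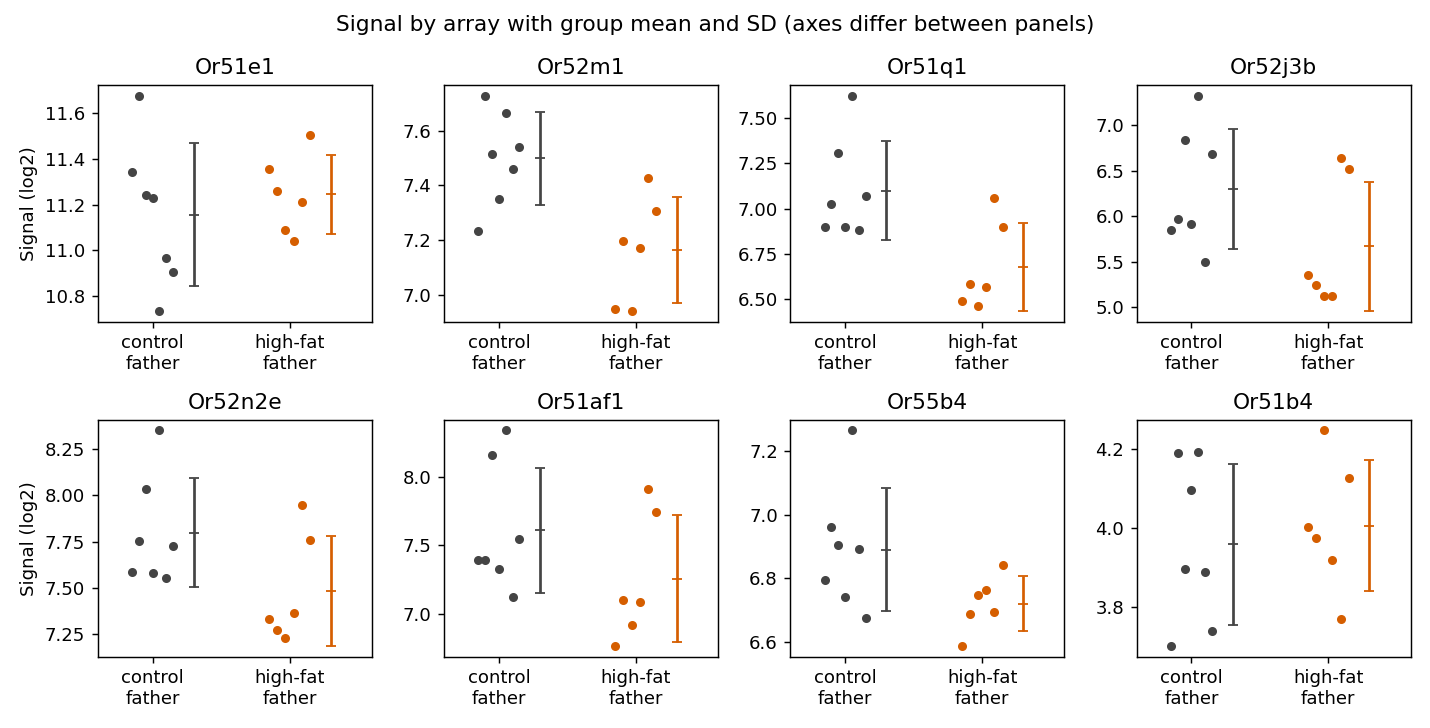
Log2 signal of 8 members on each array (points) with the group mean and SD (bars), 7 control and 6 high-fat daughters, each panel on its own axis. The groups overlap in every panel, and in Or52j3b and Or51af1 high-fat daughters 660 and 663 lie among the controls.

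The direction of Or51e1 was not the same in both number ranges. In daughters 619 to 631 (3 control, 4 high-fat) the difference was -0.23 ± 0.12, with an unadjusted limma p of 0.094, and in daughters 656 to 664 (4 control, 2 high-fat) it was 0.40 ± 0.16, with an unadjusted limma p of 0.039. The difference between the ranges was 0.63 ± 0.21, with an unadjusted p of 0.0099 and an adjusted p above 0.99 in limma. The meaning of the ranges is not given in the labels. With each of 13 arrays left out in turn the difference of Or51e1 was 0.02 to 0.17.

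Or51e1 was set against 5 other measures over the 13 arrays. With the mean of 10 adipocyte markers r was 0.43 (permutation p = 0.15, adjusted 0.24) and rho was 0.46 (permutation p = 0.12, adjusted 0.25). With 10 skeletal muscle markers r was -0.47 (permutation p = 0.11, adjusted 0.24) and rho -0.49 (p = 0.093, adjusted 0.25). With 7 vascular smooth muscle markers r was -0.58 (permutation p = 0.040, adjusted 0.20) and rho -0.40 (p = 0.18, adjusted 0.25), and r was -0.07 without control 658 and high-fat 629. Des, 1 of these 7, was also high in controls 662 and 664 and high-fat 629, which had high skeletal muscle markers. With 4 erythroid markers r was -0.33 (permutation p = 0.27, adjusted 0.27) and rho -0.38 (p = 0.20, adjusted 0.25). With the spread of each array r was 0.38 (permutation p = 0.20, adjusted 0.25) and rho 0.27 (p = 0.36, adjusted 0.36). None of the 5 relations passed after adjustment. Without the 2 arrays farthest from the median of each measure, r was 0.28 for adipocyte, -0.34 for skeletal muscle and 0.07 for erythroid markers and -0.06 for array spread. In daughters 619 to 631 and 656 to 664, r was -0.01 and 0.77 for adipocyte, -0.44 and -0.45 for skeletal muscle, -0.20 and -0.69 for smooth muscle and -0.58 and 0.70 for erythroid markers, and -0.32 and 0.60 for array spread.

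The tissue label held for every array. The 10 adipocyte markers measured, such as adiponectin (Adipoq) and perilipin 1 (Plin1), had means from 10.61 to 13.84. The list averaged 12.73 ± 0.08 (SD, n = 7 control daughters) and 12.85 ± 0.14 (SD, n = 6 high-fat daughters). Of 11 markers of olfactory sensory neurons 10 were measured, with means from 5.71 to 8.22, and the mean of the list was 6.79 to 6.93 in control and 6.73 to 6.88 in high-fat daughters. Omp, the marker protein of mature olfactory neurons, read 6.89 to 7.27 on these arrays. The mean of 10 skeletal muscle markers was 9.37 to 12.11 in controls 662 and 664 and high-fat 619 and 629, and 7.39 to 7.51 in the other 9 arrays. Pairs of whole arrays correlated at 0.946 to 0.995.

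Most of the other members shared one pattern across the arrays. Of all 121, 101 had their highest value in control 658 and 12 in control 631, while 37 had their lowest in high-fat 619, 33 in high-fat 624, 22 in high-fat 620 and 16 in high-fat 629. The mean over members in control daughters was 6.13 (622), 6.27 (627), 6.64 (631), 6.16 (656), 6.85 (658), 6.16 (662) and 6.31 (664), and in high-fat daughters 5.97 (619), 6.01 (620), 5.98 (624), 6.03 (629), 6.48 (660) and 6.28 (663). High-fat 660 and 663 lay among the controls, and the other 4 high-fat arrays lay below all of them. Control 658 also stood apart in the markers of vascular smooth muscle. The mean of the 7 measured was 11.52 in control 658, 9.87 to 10.12 in the other controls and 9.58 to 10.48 in high-fat daughters, with markers at means from 8.18 to 13.27 and none at a level as low as the median member. Des, 1 of the 7, read 11.83 in control 658. It also read 11.82, 11.69 and 12.06 in controls 662 and 664 and high-fat 629, where skeletal muscle markers were high. High-fat 629 gave the 10.48. All 7 had a lower mean in high-fat daughters, with a median difference of -0.28, 0 at an unadjusted limma p under 0.05 and a median r of -0.65 with the array spread described next. Control 631, with the second highest mean over members, had a smooth muscle mean of 9.87. Without control 658 the median difference of the members was -0.15, with 115 lower. Control 658 was also the array of smallest spread, so leaving it out cannot tell smooth muscle cells and array spread apart. The part of these cells in the members' values was not tested. The median correlation over all 7260 pairs of members was 0.84 across the 13 arrays. Neighbours along chromosome 1 (120 pairs) had a median of 0.84 as well, and Or51e1 with the other members had a median of -0.29.

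This pattern followed the standard deviation of each array over all its 29214 values, called array SD here. Array SD was lowest in control 658 (1.78), control 631 (1.86) and high-fat 660 (1.86), and highest in high-fat 619 (1.96), 624 (1.96) and 620 (1.96). The mean over members had a Pearson r of -0.98 and a Spearman rho of -0.97 with array SD over 13 arrays, given as a description since both come from the same arrays. It was -0.97 without controls 631 and 658, -0.97 within the 7 controls and -0.99 within the 6 high-fat daughters. An array SD smaller by 0.1 went with a mean over members 0.52 higher. Of the members, 120 had a negative r and 65, or 53.7%, had an r of -0.9 or lower, against 45.4% of class II receptors and 5.36% of all genes. The mean over class II receptors had an r of -0.98 as well.

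Or52ae7 had the most negative r, -0.98, followed by Or51l1 at -0.97 and Or52n2e at -0.96. Or52n2e read 7.55 to 8.35 in control daughters (median 7.73) and 7.23 to 7.95 in high-fat daughters (median 7.35), with the highest values in controls 658 and 631 and high-fat 660. Or51e1 was the only member with a positive r, 0.38, and the next highest were Or51b4 (-0.07) and Or52a5 (-0.16). Or51b4 read 3.70 to 4.19 in control and 3.77 to 4.25 in high-fat daughters and was the dimmest member, though members nearly as dim, Or52e5 (4.35) and Or51b4b (4.43), had an r of -0.85 and -0.93. Or52a5 read 5.47 to 6.11 in control and 5.68 to 6.01 in high-fat daughters.

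**Figure D3:**
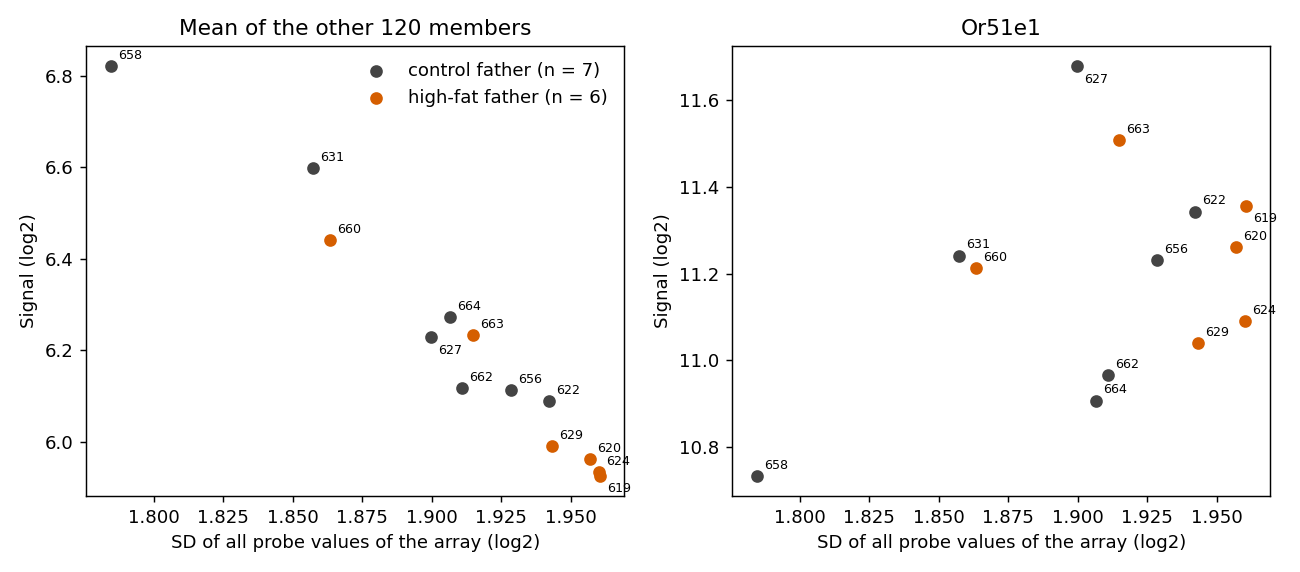
Mean log2 signal of the 120 members other than Or51e1 (left) and signal of Or51e1 (right) against the SD of all probe values of the array, 1 point per animal with its number. The mean of the 120 falls along a line with array SD, with an r of -0.98, while Or51e1 has an r of 0.38.

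The relation changed sign over the range of signals. Array SD is taken over all values of an array, so opposite signs in dim and bright genes are in part built in. Over deciles of all genes by mean signal, the median r with array SD was -0.81 in the dimmest decile, -0.67 and -0.40 in the next, 0.34 in the fifth and 0.73 in the eighth. It was 0.54 in the brightest decile. The members in the dimmest 4 deciles numbered 36, 53, 26 and 5, with median r of -0.89, -0.92, -0.91 and -0.84, more negative than the median of all genes in each decile. The fourth decile differed most, where all genes had a median r of -0.09 and the 5 members -0.84. Class II receptors, with a median r of -0.89 over all signals against -0.91 for the members, were not split by decile.

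Members varied more over the arrays than most genes. The median SD of a member over 13 arrays was 0.288, against 0.279 for class II receptors and 0.152 for all genes. After a linear fit on array SD the residual SD was 0.122, 0.132 and 0.110. The median correlation between pairs of members was then 0.14, with 64.8% of pairs positive. Pairs with near-identical coding starts had a median of 0.15, against 0.12 for all pairs of coding starts compared. The SD of Or51e1 was 0.253 before and 0.245 after that fit. Or52j3b (0.732), Or51b6 (0.515) and Or52j3 (0.490) varied most. Or52j3b read 5.85, 5.97, 6.84, 5.91, 7.33, 5.50 and 6.69 in controls 622, 627, 631, 656, 658, 662 and 664, and 5.35, 5.25, 5.13, 5.12, 6.64 and 6.52 in high-fat 619, 620, 624, 629, 660 and 663. Controls 631, 658 and 664 and high-fat 660 and 663 had the 5 highest values, and the groups overlapped.

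Between the groups, 118 of 121 members had a lower mean in high-fat daughters and 3 a higher one, against 42.0% of all genes lower. The median difference was -0.23, against 0.03 for all genes and -0.22 for class II receptors, of which 912 of 931 were lower. By subfamily the medians were -0.25 for Or51, -0.24 for Or52, -0.16 for Or55 and -0.18 for Or56. In limma 0 members passed an adjusted p of 0.05, as did 0.0% of all genes, and the smallest adjusted p of a member was 0.53. The unmoderated model likewise called 0 of the members. Without adjustment, 23 members were lower and 0 higher at p under 0.05 in limma, or 19% of members, where 2.54% of all genes were lower and 5.42% higher. The share was 13.1% lower among class II receptors, and the unmoderated model gave 9 members, or 7.44%, against 2.1% of all genes. No member had all high-fat values below all control values, which held for 0.0276% of all genes, and none had all of them above, which held for 0.0551%.

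The 23 members at an unadjusted p depended on single arrays, with 4 to 70 members when 1 array was left out. There were 70 without high-fat 660, 41 without control 622, 38 without control 656 and 37 without control 662. There were 4 without high-fat 620, 5 without high-fat 619, high-fat 624 or control 631, 7 without control 658 and 8 without high-fat 629. Without controls 658 and 631 together, 3 members were below that p, 100 members were lower and the median difference was -0.09. Without the 3 arrays of smallest array SD, controls 658 and 631 and high-fat 660, 33 members were below that p, 114 were lower and the median difference was -0.15. The share of all genes below that p was not counted in these runs, so whether the counts moved with it is not known.

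**Figure D4:**
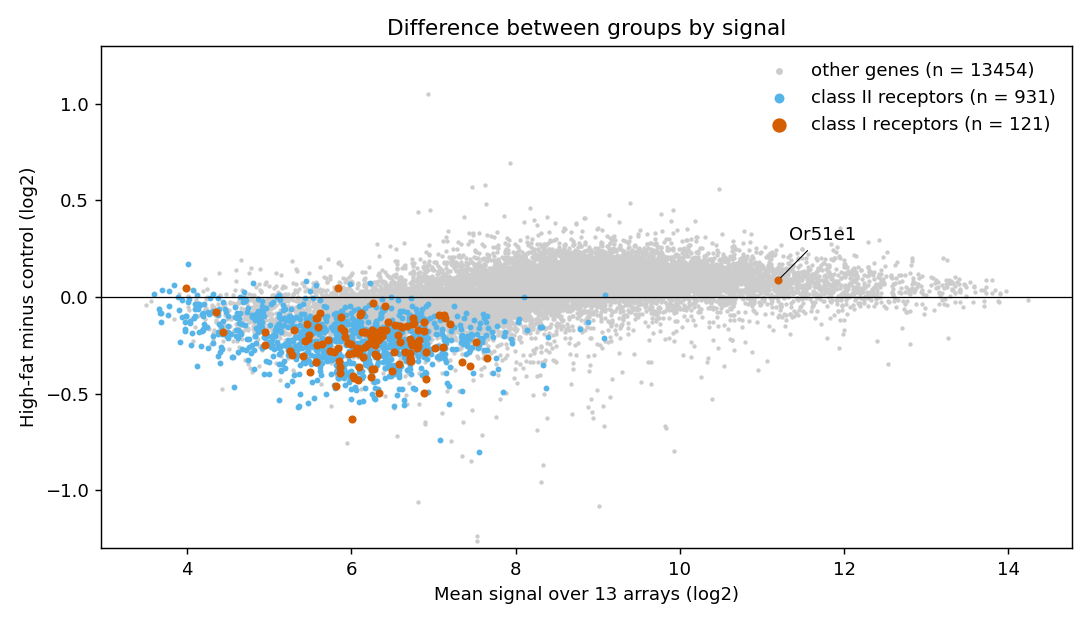
High-fat minus control difference (log2) against mean signal over 13 arrays (log2) for 14506 genes, with class I receptors in orange and class II receptors in blue. Of the class I members 118 lie below 0, and dim genes as a whole lie lower than bright ones.

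Or52m1 had the smallest p of the members. It read 7.23, 7.73, 7.52, 7.35, 7.66, 7.46 and 7.54 in controls 622, 627, 631, 656, 658, 662 and 664, and 6.95, 7.19, 6.94, 7.17, 7.43 and 7.31 in high-fat 619, 620, 624, 629, 660 and 663. All 6 high-fat values lay below the control mean, though 660 and 663 lay within the control range. The difference was -0.33 ± 0.10 (SE), with an unadjusted p of 0.0036 and an adjusted p of 0.53 in limma.

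Or51q1 read 6.88 to 7.62 in control (median 7.02) and 6.46 to 7.06 in high-fat daughters (median 6.58). Of the high-fat values, 4 lay below every control and those of 660 and 663 lay among them. The difference was -0.42 ± 0.13, with an adjusted p of 0.53 in limma. The members next by p were Or56a3b (-0.22 ± 0.08), Or52e51 (-0.50 ± 0.19), Or56b6c (-0.18 ± 0.07), Or51ah3 (-0.31 ± 0.13), Or52s1 (-0.22 ± 0.09) and Or51r1 (-0.23 ± 0.10), each again at an adjusted p of 0.53 in limma. For Or56a3b, Or56b6c, Or52s1 and Or51r1 all 6 high-fat values lay below the control mean, and for Or52e51 and Or51ah3 5 did. The 3 members with a higher mean were Or51e1, Or51b4 (0.05 ± 0.10) and Or52a5 (0.05 ± 0.11), which were also the 3 with the highest r with array SD. Array SD had a higher mean in high-fat daughters, so this match is in part built in.

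Array SD itself stood higher in high-fat daughters, 1.93 ± 0.04 (SD, n = 6) against 1.89 ± 0.05 (SD, n = 7), and a two-sided exact permutation test over 1716 arrangements gave p = 0.12. Without high-fat 660, the high-fat array of smallest array SD, this permutation p was 0.027. With each other array left out in turn this p was 0.078 to 0.22. With array SD as a covariate in limma, 71 members were lower and 50 higher, and the median difference was -0.02, against 0.00 for all genes. Since the mean over members had an r of -0.98 with array SD, this fit cannot tell a group difference from array spread. At an unadjusted p under 0.05 that fit gave 3 members lower, or 2.48%, and 1 higher, where 1.19% of all genes were lower and 1.61% higher. The 3 were Or52m1 (-0.22 ± 0.08), Or51q1 (-0.19 ± 0.05) and Or56a3b (-0.10 ± 0.04), and the higher one was Or52s20 (0.15 ± 0.07), named after its value was seen. None passed after adjustment, with an adjusted p above 0.99 for Or52m1, Or51q1 and Or56a3b. With each array centred and divided by its SD, the median difference was -0.18 and 115 members were lower. With quantile normalization applied again it was -0.16 and 114 members were lower.

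**Figure D5:**
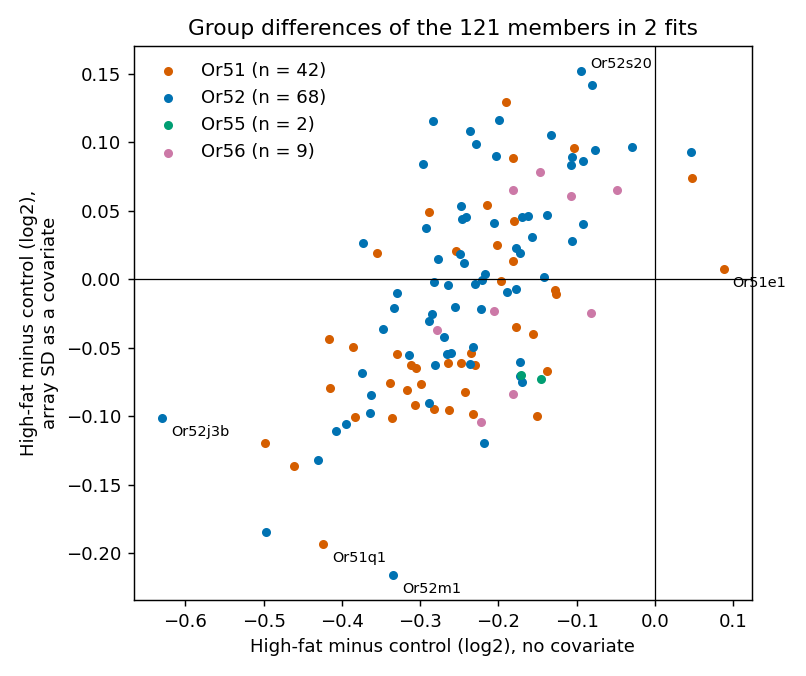
High-fat minus control difference (log2) of each of the 121 members without a covariate (horizontal) and with array SD as a covariate (vertical), coloured by subfamily. Nearly all points lie left of 0, while 71 lie below and 50 above the horizontal line.

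Within the number ranges the values stood as follows. In daughters 619 to 631 the median difference of the members was -0.35, and 78 members, or 64.5%, were lower at an unadjusted p under 0.05 and 0 higher, where 7.66% of all genes were lower and 6.06% higher. Among class II receptors 58.9% were lower. In daughters 656 to 664 the median was 0.00 with 60 members lower, and 0 members were lower and 1, Or51e1, higher at that p, where 0.407% and 0.524% of all genes were. The array SD in the first range was 1.86 to 1.94 in control and 1.94 to 1.96 in high-fat daughters, and in the second it was 1.78 to 1.93 in control and 1.86 and 1.91 in high-fat daughters; its part in these values was not tested. The product of group and range passed an adjusted p of 0.05 in limma for 0 members and 0.0% of all genes. At an unadjusted p under 0.05 it was positive for 14 members, or 11.6%, against 11.4% of class II receptors and 1.79% of all genes, and negative for 0, against 1.68%. With the range as a covariate the median difference was -0.19.

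The Or55 receptors, whose mouse relatives bind dicarboxylic acids, were measured by 2 genes. Or55b4 read 6.68 to 7.27 in control (median 6.89) and 6.59 to 6.84 in high-fat daughters (median 6.72), a difference of -0.17 ± 0.08 and an adjusted p of 0.53 in limma. Or55b10 read 6.26 to 6.83 (median 6.61) and 6.30 to 6.54 (median 6.47), a difference of -0.15 ± 0.08 with the same adjusted p. The groups overlapped for both. Their r with array SD, -0.78 and -0.62, was less negative than the member median of -0.91.

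The close relative of Or51e1, listed as Olr59 with the synonym Or51e2 in RefSeq, falls outside the symbol rule and was measured as a neighbour of the members. It read 6.44 to 6.75 in control and 6.29 to 6.67 in high-fat daughters and was dim on every array. Its difference was -0.08 ± 0.08 (adjusted p of 0.61 in limma). RefSeq places 41 named genes that are no Or symbol between the first and last member, pseudogenes among them, and 9 of the 41 were measured. These 9 include Olr59 and another gene with an Olr symbol, Olr193 (mean 6.83, r with array SD -0.82). The 9 had a median difference of -0.08, with 1 lower at an unadjusted p under 0.05 in limma, where 2.54% of all genes were. It was Hbe1, an embryonic beta-like globin (-0.22 ± 0.09). The embryonic and fetal-type globins Hbe1, Hbe2 and Hbg1 had an r with array SD of -0.84, -0.94 and -0.94 at mean signals of 6.66, 5.45 and 6.06. The adult globin Hbb, from the same cluster but with a mean of 12.42, had an r of -0.27.

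Of 20 measured genes of olfactory signal transduction and receptor transport, 0 had an unadjusted p under 0.05, and the median difference was -0.02. Smallest by p were Rtp2 and Rtp1, which carry olfactory receptors to the cell surface (-0.11 ± 0.05 and -0.11 ± 0.08), and Ric8b, a partner of Golf (0.17 ± 0.09). Golf itself (Gnal) had a mean of 5.71, the channel subunit Cnga2 6.10 and adenylyl cyclase 3 (Adcy3) 8.22. Of 12 genes that govern receptor choice in the nose, such as Ebf1, which also acts in fat cells, 0 had such a p, all 12 had a higher mean in high-fat daughters and the median difference was 0.08. The median r of the 12 with array SD was 0.67, and with array SD as a covariate their median difference was 0.01. Among all genes, 8419 of 14506 had a higher mean in high-fat daughters, and 5.42% were higher at an unadjusted p under 0.05 in limma. Of 9 measured receptors for fatty acids and other metabolites in fat, 2 were higher at that p. These were Ffar4, a receptor for long-chain fatty acids (0.33 ± 0.12), and Ffar2, a receptor for short-chain fatty acids (0.27 ± 0.11). Neither passed after adjustment (adjusted p of 0.53 in limma for each), and both had a positive r with array SD, 0.62 and 0.79. The adipocyte markers lay the same way: 10 of 10 had a higher mean in high-fat daughters, with a median difference of 0.10, and 4 were higher at an unadjusted p under 0.05, Fabp4 (0.20 ± 0.06), Plin1 (0.18 ± 0.06), Lipe (0.16 ± 0.05) and Acsl1 (0.16 ± 0.06). Their adjusted p was 0.53 in limma, and their part in the values of Ffar4 and Ffar2 was not tested. Vomeronasal receptors, the pheromone receptors, had a median difference of -0.16 over 135 genes, 128 of them lower.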

How the data were processed

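Biotin-labelled cRNA was hybridised to Affymetrix arrays. The deposited values are on the log2 scale, 3.24 to 14.54, with array medians of 7.66 to 7.72. The authors used RMA and Partek, per the submitters' processing notes, which give no version. The genome build is not used here. RMA aligns the arrays, and spread that remains can move dim and bright probes in opposite directions. Precision is limited by how many arrays there are.

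Of 29214 probes, 15310 had 1 symbol, and the brightest per symbol gave 14506 genes. Another 7 probes name several class I symbols. Groups were compared with limma 3.58.1 in R 4.3.3 (two-sided, Benjamini-Hochberg over all genes), and the fit was also run on simulated data. Genes were simulated independently of each other, so that run does not cover the pattern that the members share across arrays. Permutations used Python 3.11.15 with 100000 draws for correlations. Members and lists were chosen with earlier results of these data known. Named members were the 8 brightest, the 8 lower and 4 higher by p (3 were higher), the 3 most negative and 3 most positive in r with array SD, the 3 most variable, Or51e1 and the Or55 genes, and up to 3 genes by p from other lists. Any other gene named was chosen with its values in view.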

Additional observations from a re-analysis of the deposited data

Results flagged for a closer look

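Or52b2 read 7.44 in high-fat daughter 660, far above the other 5 high-fat daughters, which read 6.96 to 7.10. Of 50 groups looked at (23 named members, the mean over members and array SD, in each group), this was the only one with such a gap. Chance alone would flag about 1 group in 20, so 1 flag in 50 groups is no more than chance would give. High-fat 660 was the high-fat array with the smallest array SD, 1.86, whose part in the value was not tested.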

How the results depend on the processing

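No member passed under any alternative run, including an adjusted p of 0.1. The 23 members lower at an unadjusted p under 0.05 became 13 with each array centred on its median, 11 with arrays also divided by their SD, 3 with array SD and 6 with number range as a covariate, 51 with array weights, 9 in the unmoderated model, 78 in daughters 619 to 631, 0 in daughters 656 to 664, 6 when the 4 arrays highest in muscle markers were dropped and 3 without controls 658 and 631 (chosen after seeing the data). Leaving out each array gave 4 to 70. The share of all genes was counted only for the main fit, the unmoderated model, array SD as a covariate and each number range, as given above. The median difference was 0.00 (0.0028) in daughters 656 to 664 and 0.0877 among genes above the middle signal, where 1 member, Or51e1, is left and 0 were lower. It was -0.31 to -0.15 with 1 array left out and -0.35 to -0.02 under the others. The r of the member mean with array SD was -0.99 to -0.97 with 1 array left out. The group difference in array SD was 0.0256 to 0.0572 with 1 array left out, with an exact permutation p under the threshold only without high-fat 660 (p = 0.027). Of 622 values of the 23 named members, 602 kept their direction. With array SD as a covariate, 5 reversed: Or52j3 (0.12), Or52ae7 (0.0842), Or51af1 (0.0189), Or52ac1 (0.0862) and Or52b2 (0.0829). In daughters 619 to 631 Or51e1 reversed (-0.23). In daughters 656 to 664 Or51l1 (0.0154), Or52j3b (0.23), Or52j3 (0.26), Or52ae7 (0.11), Or51af1 (0.24), Or51b4 (-0.0319), Or51b6 (0.12), Or52ac1 (0.17), Or52n2e (0.0528) and Or52b2 (0.0053) did. Without controls 658 and 631 Or52ac1 (0.0046) and Or52b2 (0.0391) did. With 1 array left out Or52a5 was -0.0107 (without control 627) to 0.0947 and Or51b4 -0.0004 (without high-fat 624) to 0.0954. The cause was not tested. No paired analysis was possible because each animal number occurs once.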

Other observations

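Over the 13 arrays, the genes whose signal was most like that of Or51e1 were Cd93 (r of 0.89), a surface protein of endothelial and myeloid cells, Ngfr (0.86), the low-affinity neurotrophin receptor, and Ccnd2 (0.85), a cyclin of the G1 phase. Parm1 (-0.91) and Knstrn (-0.88) were the most opposed. They are the extremes of the correlations with all other genes over the same few arrays and were chosen with their values in view.

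The 7 probes that name several class I symbols, left out of the members, read 6.29 to 7.46 on average, with differences of -0.20 to -0.47 and an r with array SD of -0.95 to -0.97. Or51af1 and Or52a20 had 2 probes each. For Or51af1 the brighter and the dimmer probe differed between groups by -0.36 and -0.48 and correlated at 0.94, and for Or52a20 by -0.37 and -0.39 and at 0.93.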
